A study of Arabidopsis thaliana with 6 samples.

Results

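The transcripts described here were high in plants overexpressing OCTOPUS, while the octopus mutant and wild type lay close together. They are 110 probe sets of the 22746 on the array other than controls. A probe set was taken when the lower of the 2 overexpressor arrays stood at least 1.0 log2 unit above the highest of the 4 mutant and wild-type arrays, and when the mutant and wild-type means differed by less than 0.5. In all 121 probe sets, or 0.532%, met both conditions. Of these, 11 were set aside by gene name, among them OCTOPUS itself (OPS), and no plastid-encoded gene met the conditions. The distance between the lower overexpressor array and the highest other array is called the gap below. Measured values of all 6 arrays chose these transcripts, so their differences between groups are given as a description without a test.

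RNA of whole Arabidopsis thaliana plants was copied, biotin-labelled and read on Affymetrix ATH1 arrays, 2 for each of 3 groups. A probe set is the group of short probes that reads 1 transcript, or sometimes several, and its value is on a log2 scale (GCRMA), so that 1 unit is a doubling. The overexpressor is labelled 35SDYG25, in which 35S is the usual name of a viral promoter that drives expression in most tissues. The octopus mutant is labelled DYG25, and wild type is of the accession Wassilewskija (WS). All plants were untreated and were kept at 20 °C and 70% hygrometry on MS/2 medium. The labels name an accession for wild type alone, and give neither the age of the plants, the number of transgenic lines, nor whether both samples of a group came from independent cultures. Any p-value below therefore covers the spread of these particular samples alone, and that spread may be technical.

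OPS encodes a plasma membrane protein that promotes the formation of phloem, the tissue that carries sugars. Plants answer microbes through receptor-like kinases at the cell surface and immune receptors inside the cell. Calcium sensors, salicylic acid and pipecolic acid carry the signal further, and secreted pathogenesis-related proteins such as chitinases, thaumatin-like proteins and peroxidases are among its best known products. Several of the transcripts below belong to these families. They were grouped by what their proteins are known to be, after their values had been seen.

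The OPS probe set read 9.52 and 9.83 on the overexpressor arrays, 2.53 and 2.47 on the mutant arrays and 2.66 and 2.47 on the wild-type arrays, which matches the label of the overexpressor. Wild type being near the floor, this probe set cannot check the label of the mutant. Over 12363 probe sets with an average of 4 or more, the Pearson correlation was 0.984 between the overexpressor arrays, 0.989 between the mutant arrays and 0.987 between the wild-type arrays, with 0.939 to 0.975 across groups. The array carries a pair of GAPDH controls, in which the 3′ signal exceeds the 5′ signal more strongly in degraded or short-copied RNA. One showed a 3′ excess of 1.92 and 1.72 log2 units in the overexpressor, 1.80 and 1.39 in the mutant and 1.42 and 1.12 in wild type. The other showed 0.13 and 0.09 in the overexpressor, 0.06 and 0.07 in the mutant and -0.01 and -0.04 in wild type. A 25S ribosomal RNA control read 6.28 and 6.61 in the overexpressor, 8.03 and 11.2 in the mutant and 6.42 and 5.86 in wild type, so that mutant array 2 stood apart. Without that array the conditions gave 110 probe sets, of which 105 were shared. The part of these controls in the results below was not tested. Leaf and root were both present, since the leaf gene RCA read 13.65 to 13.86 and the root gene PYK10 read 11.93 to 12.5 over the 6 arrays, against array medians of 4.40 to 4.48. In whole plants, more cells of a type and more RNA per cell cannot be told apart.

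Of the 110 probe sets, 48 name 1 gene, 1 names several and 61 are not listed in the platform annotation used here. The share naming 1 gene was 43.6%, against 59.4% of all probe sets. The 11 probe sets set aside by name all name 1 gene, and leaving them out lowers the first share but not the second. The difference between overexpressor and wild type ran from 1.17 to 6.82 log2 units with a median of 1.88, which is 2.24-fold to 113-fold with a median of 3.69-fold. Against the mutant the difference ran from 1.17 to 6.90 with a median of 1.88. The gap had a median of 1.44, and 35 probe sets had a gap of at least 2, 14 of at least 3 and 4 of at least 5. For comparison, the overexpressor minus wild-type difference of all 22746 probe sets had a median of 0.03.

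Many of these transcripts were near the floor of the array outside the overexpressor. In 47 of the 110, or 42.7%, all 4 mutant and wild-type arrays read below 3, against 32.4% of all probe sets. For these a fold is limited by background. Both overexpressor arrays were above the median of their array for 87 probe sets, while both wild-type arrays were for 22. The plot of the difference against the wild-type level shows this: the 8 probe sets at least 16-fold above wild type all had wild-type means of 3.16 or less.

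**Figure D1:**
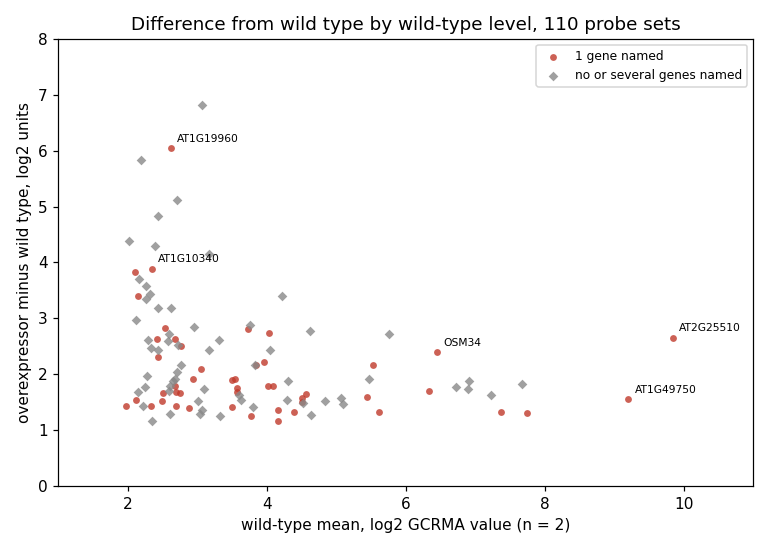
Each point is 1 of the 110 probe sets, with the wild-type mean of 2 arrays on the x axis (log2 GCRMA value) and the overexpressor minus wild-type difference of means on the y axis (log2 units). Circles name 1 gene and diamonds name none or several. AT1G19960 stands highest among the named genes at 6.04, and AT2G25510 lies farthest right, with a wild-type mean of 9.84.

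The secreted and cell wall proteins had 6 named genes. How many genes on the array fall in each role group was not counted, so the group sizes here and below are a description alone. AT4G33710, which encodes a secreted protein of the CAP superfamily related to PR-1, read 6.19 and 5.66 in the overexpressor, 2.12 and 2.09 in the mutant and 2.1 on both wild-type arrays. Both overexpressor arrays stood far above a floor that the other 4 arrays shared, and the mean difference from wild type was 3.83 log2 units, or 14.2-fold. OSM34, an osmotin-like protein of the thaumatin (PR-5) family, was measured well above the floor everywhere. It read 8.93 and 8.75 in the overexpressor, 6.09 and 6.17 in the mutant and 6.12 and 6.77 in wild type, a 5.26-fold difference from wild type. The chitinase family gene AT2G43620 read 6.92 and 6.59 in the overexpressor, 4.65 and 4.23 in the mutant and 3.99 and 4.06 in wild type. The mutant arrays lay slightly above the wild-type arrays without overlapping them, at a difference of 0.42, and both overexpressor arrays lay above all 4.

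AT1G26240 encodes an extensin-like proline-rich protein of the cell wall. Its values were 5.42 and 4.66 in the overexpressor, 2.42 and 2.41 in the mutant and 2.43 and 2.41 in wild type, so it was near the floor outside the overexpressor. AT5G64120, the secreted peroxidase PRX71, had 1 of the smallest gaps, 1.01. Its mean difference from wild type was 1.325 log2 units, and wild type itself spread from 5.32 to 5.90. The gene read 6.96 and 6.91 in the overexpressor and 5.54 and 5.72 in the mutant. AT1G13750, a purple acid phosphatase, was 2.38-fold higher in the overexpressor than in wild type, at means of 5.02 ± 0.08 in the overexpressor, 3.81 ± 0.14 in the mutant and 3.77 ± 0.18 in wild type (SD, n = 2 each).

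Of the 2 lectin genes, AT5G03350, with a legume-type lectin domain, showed the widest spread between the overexpressor arrays of all 110 probe sets. They read 4.70 and 6.37, against 2.16 and 2.14 in the mutant and 2.14 and 2.14 in wild type. Its difference from wild type was 3.39 log2 units with both arrays, 2.56 with overexpressor array 1 alone and 4.23 with array 2 alone. AT5G18470, a curculin-like lectin, read 6.56 and 5.86 in the overexpressor, 4.31 and 4.13 in the mutant and 4.75 and 4.38 in wild type. Its groups did not overlap, and the mean difference from wild type was 3.13-fold.

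The 7 named genes for receptor-like and other protein kinases had differences from wild type of 1.17 to 2.09 log2 units, with a median of 1.75. Such kinases sense molecules outside the cell or pass such signals on. AT5G59670, a leucine-rich repeat receptor-like kinase, had the largest gap among them. It read 5.00 and 5.27 in the overexpressor, 3.20 and 2.79 in the mutant and 3.21 and 2.89 in wild type, and its mutant and wild-type arrays overlapped. AT1G51890, of the same class, read 5.65 and 5.12 in the overexpressor, 3.71 and 3.25 in the mutant and 3.36 and 3.62 in wild type. AT5G49770, also with leucine-rich repeats, read 5.55 and 5.07 in the overexpressor, 3.83 and 3.80 in the mutant and 3.70 and 3.43 in wild type. In each of these 3 genes the overexpressor arrays lay at least 1.24 log2 units above the rest.

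AT2G23200, a kinase of the CrRLK1L family, whose members watch over the cell wall, read 6.08 and 5.68 in the overexpressor, 4.37 and 4.16 in the mutant and 4.08 and 4.09 in wild type. The wall-associated kinase-like gene AT1G16260 was near the floor in the mutant, at 2.53 and 2.51, and in wild type, at 2.48 and 2.51, and read 3.69 and 4.35 in the overexpressor. The serine/threonine kinase gene AT1G66880 was 2.57-fold and the kinase gene AT5G25440 2.24-fold higher in the overexpressor than in wild type, the smallest differences of the class. The probe set that names several genes reads AT1G66910 and AT1G66920 together and is not assigned to either.

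Leucine-rich repeat and TIR proteins without a kinase domain had 3 named genes. TIR domains occur in immune receptors inside the cell. The TIR domain gene AT1G72900 read 5.05 and 3.85 in the overexpressor, 2.73 and 2.58 in the mutant and 2.69 and 2.65 in wild type. Its difference of 1.78 log2 units from wild type became 1.18 without overexpressor array 1. The leucine-rich repeat genes AT1G49750 and AT5G45500 stood at higher readings in all groups. AT1G49750 read 10.91 and 10.61 in the overexpressor, 9.16 and 9.45 in the mutant and 9.40 and 9.00 in wild type. AT5G45500 read 9.04 and 9.03 in the overexpressor, 7.86 and 7.87 in the mutant and 7.60 and 7.87 in wild type, and its overexpressor arrays agreed within 0.01.

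**Figure D2:**
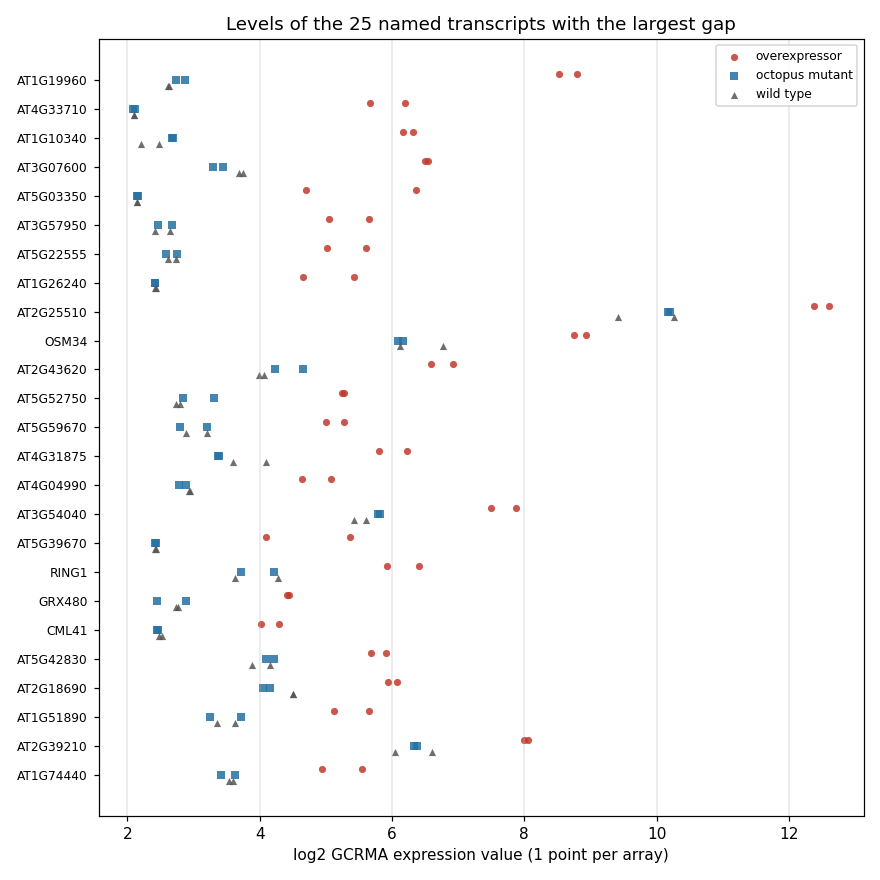
Log2 GCRMA values (x axis) of the 25 named transcripts with the largest gap (rows, the largest gap at the top), with 1 point per array: circles for the overexpressor, squares for the octopus mutant and triangles for wild type. In every row both circles lie to the right of the other 4 points, which is how the rows were chosen, and the circles are farthest apart for AT5G03350.

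Both named calcium sensor genes were near the floor outside the overexpressor. CML41, a calmodulin-like protein that acts at plasmodesmata in immune responses, read 4.02 and 4.29 in the overexpressor, 2.45 and 2.46 in the mutant and 2.52 and 2.48 in wild type. AT5G39670, a protein with EF-hand calcium-binding sites, read 5.36 and 4.09 in the overexpressor, 2.44 and 2.41 in the mutant and 2.43 and 2.42 in wild type. Its overexpressor arrays differed by 1.27.

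The ankyrin repeat genes AT1G10340 and AT4G14390 differed widely in the size of their difference. AT1G10340 read 6.16 and 6.31 in the overexpressor, 2.69 and 2.68 in the mutant and 2.21 and 2.48 in wild type. Its difference from wild type was 14.8-fold, a fold limited by background. The mutant arrays lay above the wild-type arrays by 0.34 on average. AT4G14390, whose next gene in the genome is the defence regulator ACD6, read 4.02 and 3.31 in the overexpressor, 2.19 and 2.18 in the mutant and 2.17 and 2.07 in wild type.

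Proteins with a heavy-metal-associated domain were represented by AT3G07600 and AT5G52750. AT3G07600 read 6.55 and 6.50 in the overexpressor, 3.45 and 3.30 in the mutant and 3.75 and 3.69 in wild type. Here both mutant arrays lay below both wild-type arrays, with a mutant minus wild-type difference of -0.345. AT5G52750 read 5.24 and 5.28 in the overexpressor, 2.84 and 3.31 in the mutant and 2.79 and 2.74 in wild type, with the mutant above wild type.

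The ubiquitin ligase genes were RING1 and AT5G67340. RING1, a RING-type ligase linked to programmed cell death, read 5.93 and 6.41 in the overexpressor, 3.72 and 4.21 in the mutant and 4.28 and 3.63 in wild type, a 4.64-fold difference from wild type with overlapping mutant and wild-type arrays. AT5G67340, with a U-box and armadillo repeats, read 4.03 and 4.21 in the overexpressor, 2.95 and 2.94 in the mutant and 2.52 and 2.86 in wild type.

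The 7 named genes for enzymes and transporters differed from wild type by 1.32 to 1.78 log2 units. GRX480, a glutaredoxin that binds TGA transcription factors and is induced by salicylic acid, read 4.44 and 4.41 in the overexpressor, 2.45 and 2.88 in the mutant and 2.77 and 2.74 in wild type. AT5G52810 encodes SARD4, a reductase of pipecolic acid synthesis, which is needed for resistance that spreads through the plant. It read 5.61 and 5.79 in the overexpressor, 4.34 and 4.44 in the mutant and 4.34 and 4.43 in wild type, so that mutant and wild type were nearly identical. The cytochrome P450 gene CYP71B36 read 4.84 and 4.95 in the overexpressor, 3.44 and 3.48 in the mutant and 3.40 and 3.58 in wild type.

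AT2G39210, a transporter of the major facilitator superfamily, read 8.05 and 7.99 in the overexpressor, 6.33 and 6.37 in the mutant and 6.05 and 6.61 in wild type. The acyltransferase gene AT5G42830 was 3.43-fold, the oxygenase gene AT1G03400 3.01-fold and AT2G30660, of the enoyl-CoA hydratase superfamily, 3.19-fold higher in the overexpressor than in wild type. Of these 3, AT2G30660 had the widest overexpressor arrays, at 3.97 and 4.77, against 2.91 and 2.91 in the mutant and 2.71 and 2.68 in wild type.

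**Figure D3:**
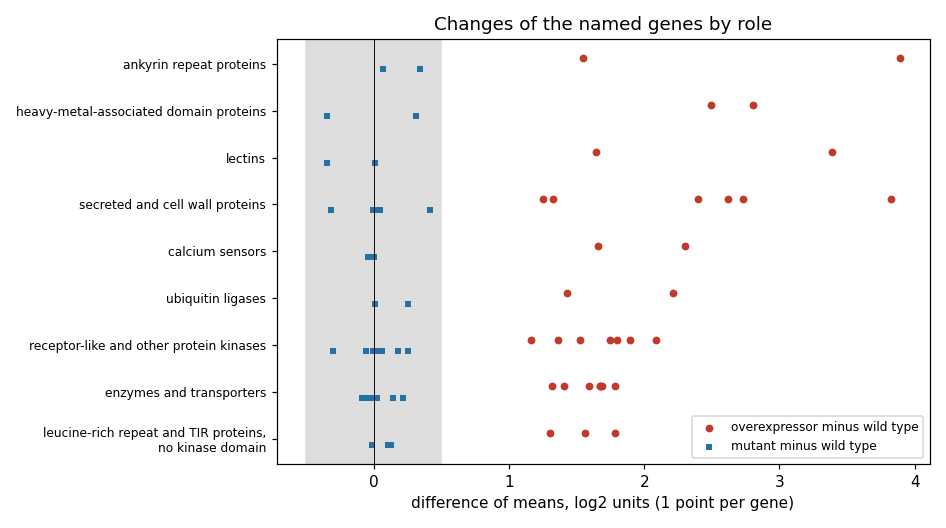
Differences of means in log2 units (x axis), 1 point of each kind for each of the 33 named genes in the role groups above (rows): circles are overexpressor minus wild type and squares are mutant minus wild type. The grey band marks the bound of 0.5 within which the rule kept the mutant, and the circles run from 1.17 to 3.89. The other 15 named genes are not drawn.

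The other 15 named genes include the largest difference and the highest readings. AT1G19960, for which no role is given here, read 8.79 and 8.53 in the overexpressor, 2.87 and 2.74 in the mutant and 2.63 and 2.61 in wild type. It stood 65.8-fold above wild type, a fold limited by background. AT2G25510 read 12.38 and 12.60 in the overexpressor, 10.20 and 10.17 in the mutant and 10.26 and 9.41 in wild type. It was the named transcript with the highest reading in each group, and its 6.30-fold difference is not limited by the floor. AT3G54040, of the PAR1 family, read 7.87 and 7.50 in the overexpressor, 5.79 and 5.82 in the mutant and 5.61 and 5.43 in wild type. AT4G38550, a PEARLI 4-like protein, was 2.51-fold higher in the overexpressor than in wild type, on a probe set of the kind that can read more than 1 transcript. Of the 110 probe sets, 5 are of that kind.

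AT3G57950 was 7.06-fold, AT5G22555 6.19-fold, AT4G31875 4.50-fold, AT4G04990 3.77-fold and AT1G21520 3.76-fold higher in the overexpressor than in wild type. AT4G31875 read 6.22 and 5.81 in the overexpressor, 3.37 and 3.39 in the mutant and 3.59 and 4.10 in wild type, and with -0.465 it came closest among all 110 to the lower bound on the mutant difference. AT1G74440 was 3.19-fold, AT1G23850 2.99-fold, AT2G18690 2.84-fold, AT1G15010 and AT3G18250 each 2.69-fold and AT4G22640 2.62-fold higher. No role is given here for AT2G25510 or for these 11 genes. AT1G15010 was near the floor outside the overexpressor, with 3.23 and 3.56 in the overexpressor, 1.97 and 1.95 in the mutant and 1.99 and 1.95 in wild type. AT3G57950, AT5G22555, AT4G04990, AT3G18250 and AT4G22640 also read below 3 on every mutant and wild-type array, so their folds are limited by background.

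The 62 probe sets that do not name 1 gene included the largest differences of the 110. Their difference from wild type had a median of 2.00 log2 units, against 1.72 for the 48 named genes. The 11 probe sets set aside by name all name 1 gene and are in neither median. Their differences ran from 1.315 for CYP71B23 to 7.11 for OPS, so the comparison depends on leaving them out. The probe set 256766_at had the largest gap of all 110, with 9.84 and 9.93 in the overexpressor, 2.94 and 3.04 in the mutant and 3.11 and 3.03 in wild type. The probe set 265837_at had a gap of 5.54, with 7.74 and 8.31 in the overexpressor against 2.20 and 2.18 in the mutant and 2.19 and 2.19 in wild type.

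The rule required both overexpressor arrays to be high, so how far they match is a description. Array 1 was higher in 60 and array 2 in 50 of the 110, and the 2 arrays were within 0.5 log2 units of each other for 77. The median distance between them was 0.33, against 0.15 over all probe sets. The 2 sets differ in level. Overexpressor means of the 110 had a median of 5.61, where the medians of the overexpressor arrays were 4.46 and 4.40. Probe sets of like level were not compared. The 2 overexpressor arrays differed by more than 1 for 9 probe sets, of which 3 name a gene. These are AT5G03350, higher on array 2, and AT5G39670 and AT1G72900, higher on array 1. The 3 genes' folds over wild type depend on the array. AT5G03350 was 18.7-fold higher on array 2 alone and 5.88-fold on array 1 alone, AT5G39670 was 3.17-fold higher on array 2 alone and 7.65-fold on array 1 alone, and AT1G72900 was 2.27-fold higher on array 2 alone and 5.21-fold on array 1 alone.

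**Figure D4:**
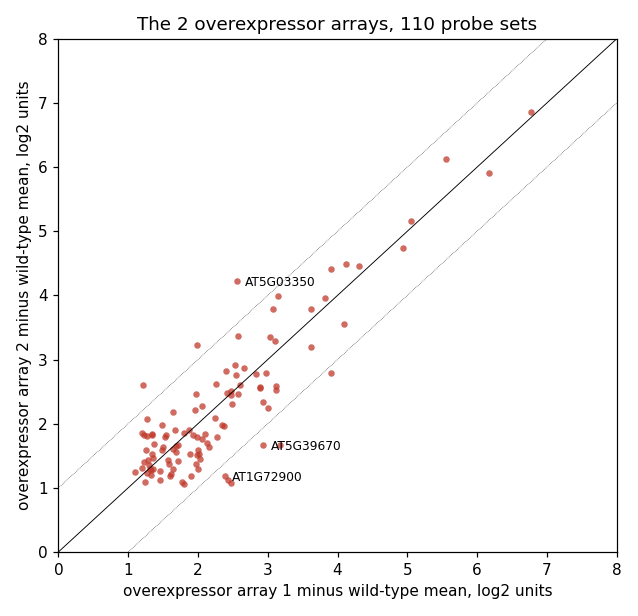
Difference from the wild-type mean in overexpressor array 1 (x axis) and array 2 (y axis), in log2 units, 1 point per probe set. The solid line marks equality and the dotted lines a distance of 1; the 3 named genes beyond 1 are labelled, with AT5G03350 higher on array 2 at 4.23 against 2.56. Both axes share the wild-type mean.

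The mutant lay within the bound set by the rule. Its mean was above that of wild type for 67 of the 110, below it for 40 and equal for 3, and the median difference was 0.01 log2 units. For 59 probe sets the 2 means differed by less than 0.1.

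Of the 110 probe sets, 56 averaged 4 or more and entered the fit across all probe sets (limma, Benjamini-Hochberg adjusted p below 0.05). In that fit 55 of them passed as higher than wild type, where 1.49% of all 12363 tested passed in that direction, and 56 passed as higher than the mutant, where 8.8% did. In either direction 2.53% of all tested passed for overexpressor against wild type, 18.4% for overexpressor against mutant and 14% for mutant against wild type. The rule used all 3 contrasts, so nothing is read from these counts. The other 54 were below the level filter. The rule with the direction turned round, both overexpressor arrays below all others, gave 5 probe sets, with differences from wild type of -1.595 to -1.07. With the mutant set apart in place of the overexpressor it gave 56 raised and 82 lowered probe sets. Both overexpressor arrays, at whatever distance, lay above all 4 others for 11.4% of probe sets and below them for 9.31%.

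Near the threshold, the named genes with the smallest gaps inside it were AT5G64120 at 1.01, AT1G13750 at 1.05 and AT2G30660 at 1.06. Just outside it were the calmodulin-like gene CML43 and the transcription factor gene WRKY47, both at 0.94, and AT1G49050 at 0.87. CML43 read 3.81 and 3.65 in the overexpressor, 2.71 and 2.66 in the mutant and 2.71 and 2.66 in wild type. WRKY47 read 5.13 and 5.10 in the overexpressor, 4.04 and 4.05 in the mutant and 3.86 and 4.16 in wild type. AT1G72060 had a gap of 2.30 and was kept out by its mutant mean, 0.54 below wild type. AT1G05575 and AT5G59680 were kept out in the same way, with mutant means that differed from wild type by -0.64 and 0.70.

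All 48 named genes were placed in the order of protein-coding genes, and 56 probe sets of their immediate neighbours were measured and name 1 gene. No 2 of the 48 are immediate neighbours, but 3 lie next to a gene set aside by name. The PR-1-related gene AT4G33720 beside AT4G33710 read 10.90 and 10.74 in the overexpressor, 7.13 and 6.53 in the mutant and 5.75 and 5.73 in wild type, so its mutant arrays also lay above wild type. The extensin-like gene AT1G26250 beside AT1G26240 stood 3.68 log2 units above wild type in the overexpressor and 0.56 in the mutant. AT5G52760 beside AT5G52750 stood 3.41 above wild type in the overexpressor and 0.07 in the mutant, while AT5G52740, on the other side of AT5G52750, differed by 0.27 and AT5G52770, next to AT5G52760, by 0.26.

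The other 53 neighbouring probe sets had a median difference of 0.09 between overexpressor and wild type, with a range of -0.68 to 4.06, and 3 of them, or 5.66%, were at least 1 log2 unit higher. Of the 13452 probe sets that name 1 gene and are neither among the 110 nor set aside by name, 67 were, or 0.498%. Neighbours often belong to 1 gene family, so these probe sets are not independent, and the shares were not tested. AT2G30670 beside AT2G30660 read 6.55 and 5.85 in the overexpressor, 2.94 and 3.14 in the mutant and 2.31 and 1.98 in wild type, the largest of these differences. The receptor-like kinase gene AT5G59680 beside AT5G59670 read 6.56 and 6.24 in the overexpressor, 4.96 and 4.77 in the mutant and 3.96 and 4.37 in wild type, while AT5G59660 on the other side stayed between 2.39 and 2.49 on all arrays. AT5G49780 beside AT5G49770 differed from wild type by 1.09 on 1 probe set and 0.41 on its second. Whether probes of related neighbours read each other's transcripts was not tested. The named gene closest to OPS lay 108 protein-coding genes away from it.

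**Figure D5:**
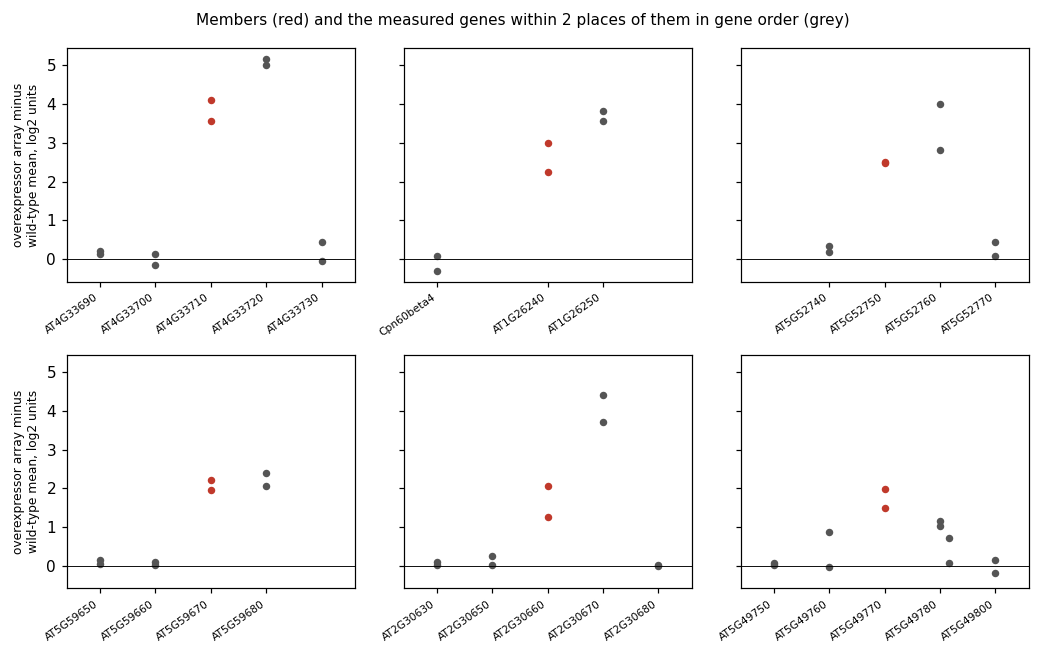
Difference of each overexpressor array from the wild-type mean in log2 units (y axis, 2 points per probe set) for 6 named genes (red), picked after their values were seen, and the measured genes up to 2 places away in gene order (grey, x axis by position). The 6 are those with an immediate neighbour that was set aside by name or stood at least 1 log2 unit above wild type in the overexpressor. A high neighbour in each panel was therefore fixed by this choice. Other neighbours are not drawn. In each panel the gene to the right of the red one is also high, from about 1.1 for AT5G49780 on its first probe set to 5.08 for AT4G33720, and the measured genes farther right lie between -0.015 and 0.255 as differences of group means.

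The named genes were spread over all 5 chromosomes, with 15 on chromosome 1, 6 on chromosome 2, 6 on chromosome 3, 7 on chromosome 4 and 14 on chromosome 5. These are 31.2%, 12.5%, 12.5%, 14.6% and 29.2% of them, where all probe sets naming 1 gene have 25.5%, 16.3%, 20.3%, 14.5% and 22.3%. The genes set aside by name are missing from the first shares but not from the second. Among those that met both conditions, OPS, AT3G03670, AT3G28510, UGT73D1 and CYP71B23 lie on chromosome 3, which lowers its share among the named genes. None of the 48 genes had a second probe set that names it, so none could be checked on other probes.

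Few other genes of the same pathways could be read by name. Of 175 genes in 11 lists on defence, receptor kinases, protein folding, calcium sensors, senescence, hormones, detoxification, cell wall, brassinosteroids and phloem, a probe set names 21 and 13 were tested. Besides AT5G64120, 12 tested genes were not among the 110. Of these, 1 was higher and 1 was lower in the overexpressor than in wild type, where 1.49% and 1.04% of all tested probe sets were, and their median difference was 0.04, against -0.045 over all tested. Against the mutant, 5 of the 12 were higher and 1 was lower, where 8.8% and 9.55% of all tested were, with a median of 0.245 against -0.03 over all tested.

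In the calmodulin list, 1 of 3 tested genes was higher. AT2G41090, a calmodulin-like gene, read 11.23 and 11.38 in the overexpressor, 8.17 and 8.47 in the mutant and 7.33 and 6.98 in wild type, a difference from wild type of 4.15 (SE 0.16, limma adjusted p = 5.2e-05). It was kept from the 110 by its mutant arrays, which lay 1.17 above wild type. CML38 differed by -0.13 (limma adjusted p = 0.707) and CML42 by -0.25 (limma adjusted p = 0.574). CML37, near the floor and not tested, differed by 0.23.

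In the detoxification list, GSTU25, a glutathione transferase, read 6.77 and 6.07 in the overexpressor, 7.91 and 7.90 in the mutant and 7.49 and 7.68 in wild type. Relative to wild type it fell by 1.17 (SE 0.223, limma adjusted p = 0.0486), and this call was lost without overexpressor array 2, where the difference was -0.815, and without any 1 of the mutant or wild-type arrays. UGT76B1, a glucosyltransferase that acts on an immune-modulating acid, read 7.97 and 7.40 in the overexpressor, 7.01 and 6.87 in the mutant and 6.80 and 7.05 in wild type. Its difference of 0.76 from wild type did not pass (limma adjusted p = 0.108), while that of 0.745 from the mutant did (limma adjusted p = 0.046). Against the mutant GSTU25 differed by -1.485 (limma adjusted p = 0.00736), and AT2G41090 by 2.985 (limma adjusted p = 0.000193).

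Of the salicylic acid defence list, SAG101, which works with EDS1, differed by 0.46 from wild type (limma adjusted p = 0.212), and of the pattern-triggered immunity list BIK1, a kinase downstream of immune receptors, by 0.01 (limma adjusted p = 0.987). BIK1 was 0.505 above the mutant (limma adjusted p = 0.0338). In the cell wall list the pectin methylesterase gene ATPMEPCRB differed by 0.88 from wild type (limma adjusted p = 0.0759) and by 1.32 from the mutant (limma adjusted p = 0.00726). The chaperone genes CRT1b and ATERDJ3B of the endoplasmic reticulum differed by 0.01 and 0.06, WRKY6 of the senescence list by 0.23 and SWEET11, a sucrose exporter of phloem loading, by -0.29 from wild type, none of which passed. SWEET11 was 0.49 above the mutant (limma adjusted p = 0.0358). PDF1.2 and THI2.1 of the jasmonate and ethylene list were not tested and differed by 0.48 and 0.09. No gene of the CRK and WAK kinase list or of the brassinosteroid list had a named probe set.

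Few markers of single cell types could be read. Of 30 marker genes in 8 lists, a probe set names 9, of which 6 were tested. In limma, 0 of the 6 passed for overexpressor against wild type. At an unadjusted p below 0.05 there were 3 of the 6, against 20.7% of all tested probe sets. Against the mutant 2 of the 6 were lower, where 9.55% of all tested were. PYK10 differed from the mutant by -0.375 (limma adjusted p = 0.0395). The leaf gene LHCB4.2 read 10.55 and 10.30 in the overexpressor, 11.63 and 11.63 in the mutant and 9.84 and 10.80 in wild type, a difference from the mutant of -1.205 (limma adjusted p = 0.0281). The summed level of the 3 root markers was 11.96 to 12.13 in the overexpressor, 12.35 to 12.47 in the mutant and 12.40 to 12.53 in wild type. That of the 3 stomatal markers was 4.99 to 5.12 in the overexpressor, 5.11 to 5.15 in the mutant and 5.31 to 5.32 in wild type, with MUTE near the floor on all arrays. For the 2 leaf markers it was 13.78 to 13.83 in the overexpressor, 14.11 to 14.14 in the mutant and 13.77 to 13.84 in wild type. The sums are of values taken off the log2 scale, so PYK10 sets the root sum and RCA most of the leaf sum. The root markers EXPA7 and EXPA18 read 5.19 to 5.93 over the 6 arrays. They differed from the mutant by -0.125 and 0.15 and from wild type by -0.55 and -0.04, none of which passed. The part of these cell types in the results above was not tested. The shoot meristem gene CLV3 read 2.17 to 2.23 on all arrays, near the floor. Markers of xylem, phloem, flower and seed had no named probe set here.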

How the data were processed

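The authors deposited log2 expression values made with GCRMA, 1 per probe set and array, per the submitters' processing notes (version not given). The log2 scale was read from the values, which run from 1.82 to 14.3. How the arrays were grouped for normalization is not known here. Among the 110 probe sets, 9 carry more than 2 decimals in mutant or wild-type arrays and 3 in overexpressor arrays. Gene names come from the platform annotation, updated by gene number to TAIR10.1. No coordinates and no sequences are given, as the build of the array and a sequence table were not at hand. The gap was compared with 1.0 at a tolerance of 1e-09.

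All 6 arrays entered 1 fit in limma 3.58.1 (R 4.3.3; lmFit, eBayes with trend, no covariates) on the 12363 probe sets averaging 4 or more, controls left out, with 3 residual and 3.98 prior degrees of freedom. The fit was tested on simulated data. The members, lists and roles were chosen with earlier results of these data known. Named are the 25 largest gaps, list genes, members sharing a role and the 3 on each side of the threshold; the other named genes, and unnamed probe sets, were added after their values were seen. Roles were assigned from general knowledge of the genes, since the reference table holds no product names; a promoter comparison was not run. Alternatives were other filters, added quantile normalization, no trend, 4 arrays, a replicate block, other thresholds and each array left out. The number of arrays limits the precision.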

Additional observations from a re-analysis of the deposited data

How the results depend on the processing

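All 48 named genes stayed higher in the overexpressor than in wild type with added quantile normalization. As they were chosen for a gap of at least 1.0 log2 unit, that outcome was all but fixed. They also did so without either overexpressor or wild-type array, which the rule fixed in advance. Neither result is a check. The fold moved by over 1.5 times in 3, AT5G03350, AT5G39670 and AT1G72900, each both without overexpressor replicate 1 and without replicate 2. The number of members was 52 at a gap of at least 1.5, 35 with the lower overexpressor array at 6 or more, 102 with quantile normalization (101 shared), and 110 to 180 with 1 array left out, the highest without overexpressor replicate 1 and 174 without replicate 2. Fits without 1 array leave 1 array in a group. Overexpressor against wild type gave 313 calls, 191 at a mean of at least 6, 75 with only the 4 arrays compared and 57 to 373 with 1 array left out: 373 and 83 without overexpressor replicates 1 and 2, 80 and 75 without mutant replicates 1 and 2, and 57 and 109 without wild-type replicates 1 and 2. Overexpressor against mutant gave 2269, and 363 to 1931 with 1 array left out (1095 without overexpressor replicate 2, 503 and 363 without mutant replicates 1 and 2). Mutant against wild type gave 1736, 1009 without a filter, and 167 to 1807 with 1 array left out (167 and 278 without mutant replicates 1 and 2, 683 and 810 without wild-type replicates 1 and 2). Apart from fewer arrays or probe sets tested, the cause was not tested. With the replicate number as a block the counts were 118, 1579 and 1166. The deviations of same-numbered arrays from their group means correlated at 0.156 for overexpressor and wild type, -0.306 for overexpressor and mutant and -0.24 for mutant and wild type. Whether the samples were paired, by these numbers or in another order, cannot be told from these values. The call of GSTU25 was also lost without a filter, without a trend, with the 4 arrays compared and with the replicate block.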
